A study of Mus musculus with 4 samples.

Results

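The transcripts described here belong to genes that copy DNA and divide chromosomes, in microglia (the macrophages that live in brain tissue) isolated from mice at embryonic day 14. The genes were taken from a given list by symbol and comprised 29 DNA replication genes and 30 genes of the G2 and M phases. All 59 were found among the 26051 features of the count table, and all 59 passed the filter on low counts that left 15840 genes. They were chosen with earlier results of these data known. The 2 groups carry the titles ko and ff, with libraries 1 and 3 titled ko and libraries 2 and 5 titled ff. In the ko group the histone acetyltransferase gene Hat1 had been deleted conditionally with Cre and loxP, per the series' design text, and ff is taken as the comparison group. What ff stands for, which promoter drives Cre, which exons are lost and how many embryos went into a library are not stated in the labels, so p-values reflect only how far these libraries spread, which may be technical. Where 4 values are given, those in ff are of libraries 2 and 5 and those in ko of libraries 1 and 3, in that order.

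A dividing cell licenses its replication origins in G1 by loading the MCM2-7 helicase, fires them in S phase, and then builds a mitotic spindle under the control of cyclin-dependent and Aurora and Polo kinases. Transcripts of the replication genes are induced in late G1 by E2F factors. Those of the G2 and M genes are induced later by the MuvB complex with B-Myb and FoxM1, which is recruited through a promoter element called the cell cycle genes homology region (CHR), often beside CCAAT boxes bound by NF-Y. Microglia colonise the brain as early embryonic macrophages and expand there by division, so transcripts of this kind are known from embryonic microglia. HAT1 itself acetylates newly made histone H4 before it is laid down behind the fork.

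The sequence shared by the members was read from RefSeq promoters of GRCm38.p6, which span 250 bases before to 50 bases after a gene's start. The table held 49 of the 59 members by symbol. Mcm4, Gins2, Gmnn, Ccne2, Pole, Rfc2, Ccna2, Aurkb, Tpx2 and Kif20a were not matched. An E2F-type match was TTT, then GG, CG, CC or GC, then CGC. A CHR-type match was TTTGAA or TTCGAA, and a CCAAT match was CCAAT. Both strands were searched, a palindrome was counted once, and E2F-type matches on opposite strands could overlap each other. An E2F-type match was present in 8 of 23 replication members (34.8%), in 1 of 26 G2 and M members (3.85%) and in 2.60% of all 27025 genes of the promoter table. A CHR-type match was present in 20 of 26 G2 and M members (76.9%), in 4 of 23 replication members (17.4%) and in 21.7% of all genes. CCAAT was present in 80.8% of G2 and M members, 52.2% of replication members and 41.1% of all genes. A match is a run of letters and not a measured binding site.

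**Figure D1:**
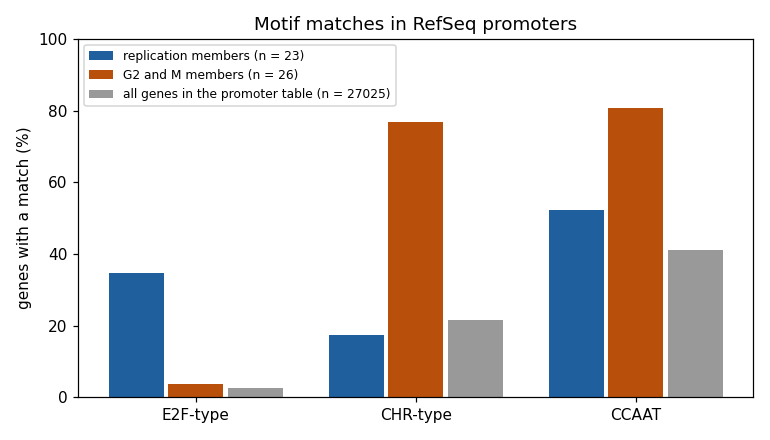
Share of genes (%) whose RefSeq promoter holds each motif on either strand, for replication members, G2 and M members and all genes of the promoter table. E2F-type matches stand highest in the replication members (34.8%) and CHR-type matches in the G2 and M members (76.9%), against 2.60% and 21.7% of all genes.

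Stretches upstream of the start site of 8 members show these patterns, with motif letters in capitals and each stretch ending at the last base before the start. Mcm5 (chr8:75109339-75109508, plus strand) and Mcm6 (chr1:128359706-128359825, minus strand) are shown for their E2F-type matches. Each holds a pair that overlap on opposite strands, at positions -153 and -149 from the start in Mcm5 and at -110 and -106 in Mcm6, and Mcm6 has another at -47. Cdk1 (chr10:69352913-69353062, minus strand) is shown as the G2 and M member with an E2F-type match, at -131, and CHR-type matches at -71 and -15. Ube2c (chr2:164769829-164769928, plus strand), Cdc20 (chr4:118437344-118437423, minus strand) and Hmgb2 (chr8:57511753-57511842, plus strand) are shown for a CHR-type match at -29, -18 and -30, with CCAAT or its reverse complement nearby. Tk1 (chr11:117826015-117826264, minus strand) and Birc5 (chr11:117848987-117849236, plus strand) are shown because they were the only members past the test described below, and neither holds a match of any of the 3 kinds in its window.
Mcm5: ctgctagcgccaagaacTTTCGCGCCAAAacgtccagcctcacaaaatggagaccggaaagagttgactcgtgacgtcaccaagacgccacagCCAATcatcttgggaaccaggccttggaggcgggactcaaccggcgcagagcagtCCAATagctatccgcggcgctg
Mcm6: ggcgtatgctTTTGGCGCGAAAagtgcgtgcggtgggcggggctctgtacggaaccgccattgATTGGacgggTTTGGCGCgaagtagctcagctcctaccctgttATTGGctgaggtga
Cdk1: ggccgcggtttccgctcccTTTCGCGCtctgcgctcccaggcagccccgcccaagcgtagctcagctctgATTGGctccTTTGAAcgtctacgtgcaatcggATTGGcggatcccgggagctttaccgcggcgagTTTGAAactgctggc
Ube2c: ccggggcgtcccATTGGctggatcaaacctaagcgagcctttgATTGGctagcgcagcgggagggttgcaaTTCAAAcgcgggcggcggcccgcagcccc
Cdc20: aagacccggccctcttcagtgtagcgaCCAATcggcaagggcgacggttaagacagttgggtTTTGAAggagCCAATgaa
Hmgb2: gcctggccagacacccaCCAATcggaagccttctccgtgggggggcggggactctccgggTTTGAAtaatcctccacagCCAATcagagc
Tk1: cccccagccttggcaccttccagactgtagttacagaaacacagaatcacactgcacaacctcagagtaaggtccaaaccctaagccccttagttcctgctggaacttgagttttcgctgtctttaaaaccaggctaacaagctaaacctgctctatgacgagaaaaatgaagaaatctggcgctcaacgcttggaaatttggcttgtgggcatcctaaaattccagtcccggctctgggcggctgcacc
Birc5: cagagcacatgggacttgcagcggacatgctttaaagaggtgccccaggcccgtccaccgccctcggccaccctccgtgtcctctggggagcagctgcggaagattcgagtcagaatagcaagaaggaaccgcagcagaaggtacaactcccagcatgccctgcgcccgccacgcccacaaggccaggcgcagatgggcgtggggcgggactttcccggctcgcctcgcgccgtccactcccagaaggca

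Libraries held between 14814846 and 18990917 counts. Hat1 stood at 44.3 and 71.4 CPM (counts scaled to a common library total) in ff against 39.2 and 36.6 in ko, a difference that missed the threshold (edgeR adjusted p = 0.298). A count over the whole gene checks the ko titles only in part, since the deleted exons are not named. Ko library 1 stood apart in sex-linked transcripts, with 3188 counts of the Y-linked gene Ddx3y against 0 in each other library and 3 counts of Xist against 2847 to 3986. By these transcripts sex was not balanced between the groups, and in ko library 1 sex and deletion cannot be told apart. Markers of microglia were present in every library, among them Csf1r, the receptor for colony-stimulating factor 1, between 6198 and 7197 CPM. So were those of border-associated macrophages, with the mannose receptor gene Mrc1 between 4828 and 7398 CPM. Mean levels ran from 61.4 to 6623 CPM in the microglia list, with a median of 349.6 CPM. In the border macrophage list they ran from 521.4 to 6052 CPM, with a median of 1848 CPM. Across all tested genes 188 were higher in ko (1.19%) and 82 lower (0.518%) by edgeR's quasi-likelihood test at a Benjamini-Hochberg adjusted p of at most 0.05.

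The replication and mitosis transcripts were mostly a little higher in the ko libraries, and 2 of the 59 passed the test. Tk1 and Birc5 rose and 0 members fell, 1 rise in each list, where the test called 1.7% of all genes (1.19% higher and 0.518% lower). With limma-voom, and with an offset for length and GC of transcripts, 0 members were called in either direction. DESeq2 called 0 members lower. At an unadjusted edgeR p of at most 0.05 there were 18 higher members and 0 lower ones, against 8.62% and 7.56% of all genes. The fitted log2 fold change, ko minus ff, was above 0 in 27 of 29 replication members and in 27 of 30 G2 and M members, against 51% of all genes. The median was 0.20 for the replication members, or 1.15-fold, and 0.25 for the G2 and M members, or 1.19-fold, beside 0.01 over all genes. Members induced together in the cell cycle are not independent of one another, and counts of members, here and below, were not tested. In bulk RNA, more dividing cells and more transcript per dividing cell cannot be told apart.

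Summed over each list, the levels separated the groups. Replication members together came to 1694 and 1749 CPM in ff libraries 2 and 5 and to 1965 and 1902 CPM in ko libraries 1 and 3. G2 and M members came to 1401 and 1578 CPM in ff and to 1731 and 1800 CPM in ko. The groups did not overlap in either sum, and the sum was 12.3% higher in ko for replication and 18.5% higher for G2 and M. These sums were not tested, since the smallest p an exact permutation test (two-sided) allows at this size is 0.3333. Both ko libraries lay above both ff libraries in 39 of the 59 members and below them in 3, against 25.8% and 23.8% of all genes.

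The ff libraries were themselves apart. Ff library 2 was the lowest of the 4 in 45 of 59 members, 19 of 29 replication members and 26 of 30 G2 and M members, where it was the lowest in 29.3% of all genes. Ff library 5 was the lowest in 8 members, all in replication, against 20.1% of all genes. Ff library 5 lay above ff library 2 in 28 of 30 G2 and M members, with a median log2 difference of 0.17, and in 19 of 29 replication members, with a median of 0.09. Between ko libraries 3 and 1 the medians were 0.04 and -0.08. The 2 ko libraries split the highest values by phase, ko library 1 being highest in 19 of 29 replication members and ko library 3 in 19 of 30 G2 and M members, against 28.3% and 24% of all genes. Without ff library 2 the G2 and M median was 0.11 and the replication median 0.17, and neither Tk1 nor Birc5 passed (adjusted p = 0.196 and 0.223). Without ff library 5 the medians were 0.35 and 0.18. The fitted log2 fold change of a member moved by over 1.5 times, or changed sign, in 32 of 59 members without ff library 2, in 25 without ff library 5, in 20 without ko library 1 and in 19 without ko library 3, and in 0 of the 2 called members each time.

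**Figure D2:**
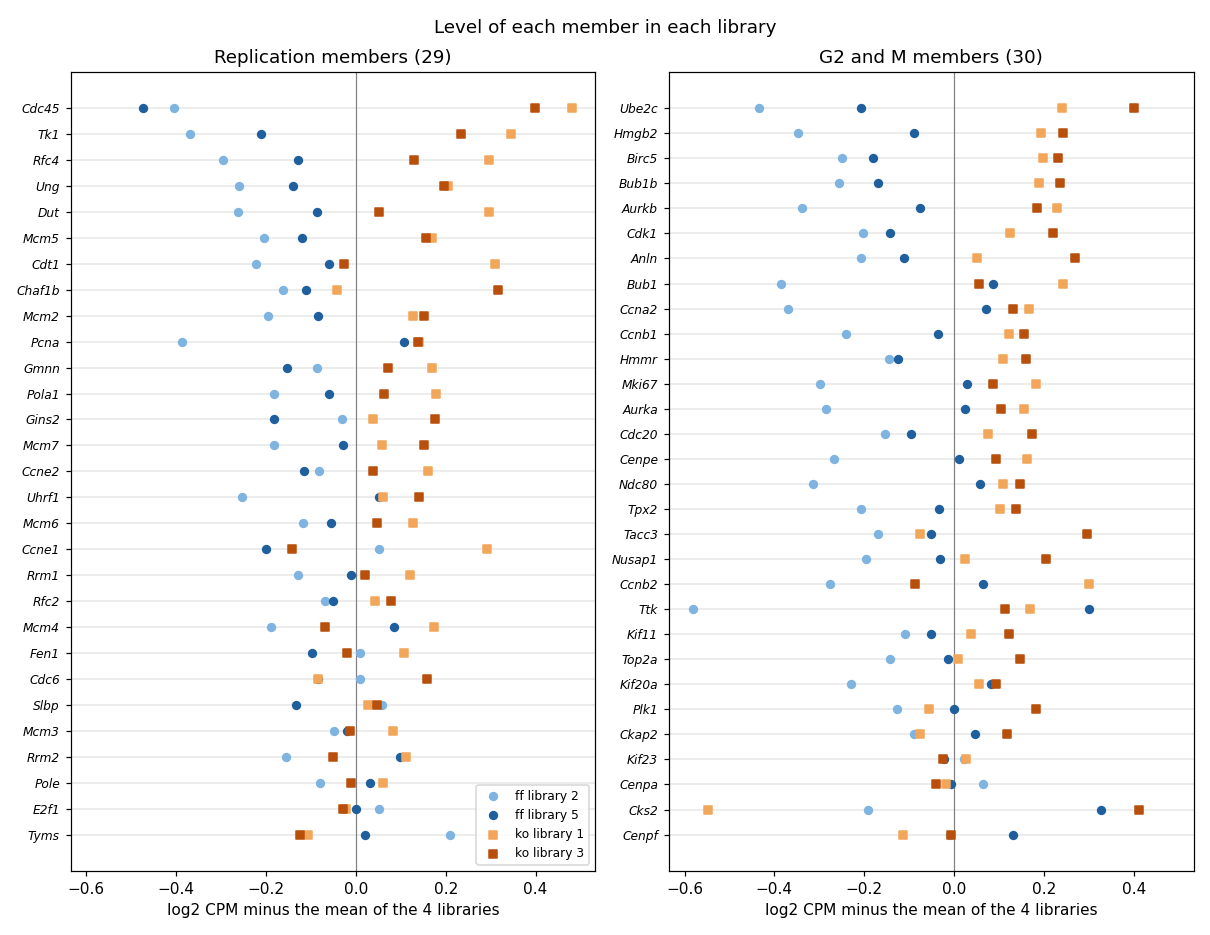
Each row is a member, and each point its log2 CPM in 1 library minus the mean of the 4 libraries, with ff libraries as circles and ko libraries as squares. Ff library 2 is the leftmost point in 45 of the 59 rows, and both ko libraries lie to the right of both ff libraries in 39 rows.

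Tk1, the thymidine kinase that salvages thymidine for DNA synthesis, stood at 35.1 and 39.2 CPM in ff against 57.7 and 53.3 in ko. The groups did not overlap, and each within-group gap was small beside the gap between groups. Means were 37.2 ± 2.89 CPM in ff and 55.5 ± 3.05 CPM in ko (SD over 2 libraries), so Tk1 rose 1.49-fold, with a log2 fold change of 0.58 ± 0.11 (SE) and an edgeR adjusted p of 0.0419. It missed the threshold with limma-voom (0.0664) and with the offset that corrects for length and GC of transcripts (0.0726). In the GRCm38 annotation the exons of Tk1 overlap those of its neighbour Afmid on the opposite strand, and whether reads were counted by strand is not given in the sources used here. Afmid, which encodes a formamidase of tryptophan breakdown, was much lower, at 10.7 and 7.76 CPM in ff against 10.5 and 8.95 in ko (log2 fold change 0.08, adjusted p = 0.897).

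Afmid lies between Tk1 and Birc5 in the RefSeq table of GRCm38, so the only members past the test are near neighbours on chromosome 11. Of the genes flanking them, Syngr2 had 112.2 ± 8.65 CPM in ff and 130.0 ± 0.804 in ko (SD of 2 libraries, log2 fold change 0.21, edgeR adjusted p = 0.274), and Tha1 had 10.9 ± 1.12 and 11.5 ± 0.705 (0.08, 0.862). None of these 3 passed.

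The remaining enzymes of deoxynucleotide supply did not pass. Rrm1, the large subunit of ribonucleotide reductase, had 184.4 and 200.1 CPM in ff against 219.2 and 204.5 in ko, and its partner Rrm2 had 17.7 and 21.1 CPM in ff against 21.2 and 18.98 in ko. Dut, which hydrolyses dUTP, and Ung, which cuts uracil out of DNA, had log2 fold changes of 0.35 and 0.40 (edgeR adjusted p = 0.274 and 0.150). Tyms, the thymidylate synthase that makes thymidylate anew, went against the list, at 55.8 and 48.9 CPM in ff against 44.9 and 44.3 in ko. Both ko libraries lay below both ff libraries for Tyms, with a log2 fold change of -0.23 ± 0.10 (SE) and an adjusted p of 0.323. The salvage enzyme and the enzyme of new synthesis thus had fitted changes of opposite sign.

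The 6 subunits of the MCM2-7 helicase, which unwinds DNA at the fork, all had a fitted change above 0 and 0 of 6 passed. Over all genes, 51% had a fitted change above 0. At an unadjusted edgeR p of at most 0.05, 2 of 6 were higher, against 8.62% of all genes. Mcm5 had 85.2 and 90.4 CPM in ff against 110.4 and 109.4 in ko, or 1.25-fold (edgeR adjusted p = 0.108). Mcm2 had 113.7 and 122.8 CPM in ff against 142.1 and 144.6 in ko, or 1.21-fold (0.153). In both the ko libraries lay above the ff libraries with a gap wider than that within either group. Mcm6 had 204.1 and 213.4 CPM in ff against 242.0 and 228.7 in ko, and Mcm7 had 62.1 and 69.1 CPM in ff against 73.4 and 78.2 in ko. Mcm3 had 183.1 and 186.8 CPM in ff against 200.5 and 187.5 in ko, where the lower ko library lay just above ff. Mcm4 had 47.0 and 56.9 CPM in ff against 60.5 and 51.1 in ko, with groups that overlapped. The subunits act together in a single ring, yet per kilobase of transcript they ran from 15.0 CPM for Mcm4 to 55.2 for Mcm3.

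Among genes of helicase loading and activation, Cdc45, a part of the active helicase, had the highest log2 fold change of all 59 members. It was 0.88 ± 0.26 (SE), with an edgeR adjusted p of 0.173. The change in Cdc45 rested on 44 and 46 counts in ff against 104 and 83 in ko, or 3.00 and 2.86 CPM against 5.54 and 5.23. The ko libraries lay clear of the ff libraries, and the low counts left a wide 95% interval, from 1.21-fold to 2.80-fold. The other genes of this group, Cdc6, Cdt1, its inhibitor Gmnn and the GINS subunit gene Gins2, lay between 0.08 and 0.29, and 0 of these 4 passed.

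Of the polymerase and clamp genes, Rfc4, a subunit of the clamp loader, had 17.5 and 19.7 CPM in ff against 26.4 and 23.5 in ko, or 1.34-fold (edgeR adjusted p = 0.202). Pcna, the sliding clamp, had 11.5 and 16.2 CPM in ff and 16.6 in each ko library, so ff library 2 stood apart and ff library 5 lay beside ko. A copy annotated as Pcna-ps2 shares 17.8% of the 100-base runs of the Pcna transcript, so its level is uncertain. Pole, the catalytic subunit of the leading-strand polymerase, had 13.2 and 14.3 CPM in ff against 14.6 and 13.9 in ko, with groups that overlapped. Pola1 (1.18-fold), Rfc2 (1.09-fold) and Fen1 (1.06-fold) did not pass, and an antisense transcript annotated as Gm10143 shares 79.7% of the runs of Fen1.

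Genes that decide entry into S phase had 0 of 3 past the threshold, and 0 of 3 at an unadjusted p of at most 0.05 (edgeR). Of all genes 1.7% passed the threshold, and at that unadjusted p 8.62% were higher and 7.56% lower. E2f1, the transcription factor, had 28.1 and 27.1 CPM in ff against 26.7 and 26.5 in ko, a log2 fold change of -0.05 ± 0.11 (SE, edgeR adjusted p = 0.864). The E cyclins, which activate CDK2 at the start of S phase, stood at 20.2 and 17.0 CPM in ff against 23.9 and 17.7 in ko for Ccne1, where groups overlapped, and at 6.61 and 6.46 in ff against 7.83 and 7.19 in ko for Ccne2. Slbp, which binds histone messenger RNA, had 172.3 and 151.1 CPM in ff against 168.8 and 171.1 in ko. The histone chaperone gene Chaf1b and the DNA methylation maintenance gene Uhrf1 had log2 fold changes of 0.28 and 0.19, and neither passed (edgeR adjusted p = 0.378 and 0.491). Chaf1b was at 0.092 without ko library 3, and Uhrf1 at 0.047 without ff library 2.

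In the G2 and M list, Birc5, which encodes survivin, a subunit of the chromosomal passenger complex, stood at 67.0 and 70.2 CPM in ff against 91.2 and 93.4 in ko. The ko libraries lay well above the ff libraries, and the gap between groups was wider than that within either. Means were 68.6 ± 2.29 CPM in ff and 92.3 ± 1.59 CPM in ko (SD over 2 libraries), so Birc5 rose 1.35-fold, with a log2 fold change of 0.43 ± 0.08 (SE) and an edgeR adjusted p of 0.0474. Without ff library 5 the adjusted p was 0.0826, with limma-voom 0.0732 and with the length and GC offset 0.0816. Aurkb, the Aurora kinase of the same complex, had 62.6 and 75.0 CPM in ff against 92.7 and 89.9 in ko. That was 1.33-fold (edgeR adjusted p = 0.117), with log2 fold changes of 0.28 without ff library 2 and 0.52 without ff library 5.

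Ube2c, the ubiquitin-conjugating enzyme that works with the anaphase-promoting complex, had the highest log2 fold change of its list, 0.64 ± 0.13 (SE), and just missed the threshold with an edgeR adjusted p of 0.0548. It stood at 24.9 and 29.1 CPM in ff against 39.7 and 44.4 in ko, and it passed with DESeq2 (0.0187). With a library left out, its log2 fold change ran from 0.53 without ff library 2 to 0.73 without ff library 5. Hmgb2, a chromatin protein abundant in dividing cells, had 141.8 and 169.4 CPM in ff against 206.2 and 213.4 in ko, or 1.35-fold (0.0875, and 0.0252 with DESeq2). The log2 fold change of Hmgb2 ran from 0.31 without ff library 2 to 0.54 without ff library 5. Annotated copies share up to 18% of the runs of Hmgb2. Bub1b, a kinase-like protein of the spindle checkpoint, had 41.5 and 44.0 CPM in ff against 56.5 and 58.3 in ko. That was 1.34-fold (edgeR adjusted p = 0.0811), with a log2 fold change of 0.38 without ff library 2. Ko libraries lay above ff libraries in each of these 3 genes.

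The cyclins and CDK1, the engine of mitotic entry, did not pass. Ccnb1 had 48.6 and 56.0 CPM in ff against 62.5 and 63.9 in ko, or 1.21-fold (edgeR adjusted p = 0.244), with 21.5% of its runs shared with the copy Ccnb1-ps. Cdk1 had 13.8 and 14.4 CPM in ff against 17.4 and 18.5 in ko, or 1.27-fold (0.305). Ccna2 had 18.0 and 24.4 CPM in ff against 26.1 and 25.5 in ko, so that ff library 5 lay close to ko. Ccnb2 had 8.25 and 10.4 CPM in ff against 12.3 and 9.40 in ko, with groups that overlapped. Cks2, a small subunit that binds CDKs, had only 14 and 22 counts in ff against 14 and 23 in ko, and its 95% interval ran from 0.405-fold to 2.15-fold. A change of 2-fold in Cks2, up or down, lay within that interval and was not detectable at this depth.

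The other kinases and the chromosome genes Mki67 and Top2a did not pass. Mki67, which coats mitotic chromosomes and is widely used as a marker of division, had 75.8 and 95.03 CPM in ff against 105.8 and 98.9 in ko (log2 fold change 0.26, edgeR adjusted p = 0.325). Top2a, the topoisomerase that untangles chromosomes, had 116.3 and 127.3 CPM in ff against 129.3 and 142.3 in ko. In both, ff library 5 lay closer to the lower ko library than to ff library 2. Plk1, the Polo kinase, had 31.2 and 34.0 CPM in ff against 32.7 and 38.6 in ko, with groups that overlapped. Aurka, Bub1 and Ttk had log2 fold changes of 0.25, 0.28 and 0.21, with edgeR adjusted p of 0.365, 0.458 and 0.772, and of 0.11, 0.065 and -0.16 without ff library 2. Ttk had 5.73 CPM in ff library 2 against 9.27 to 10.6 in the other 3 libraries.

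Genes of the centromere and kinetochore other than Birc5 did not pass. Cenpf, a kinetochore protein, had 98.5 and 108.6 CPM in ff against 91.7 and 98.7 in ko, a log2 fold change of -0.12 ± 0.09 (SE, edgeR adjusted p = 0.530). Cenpa, the histone H3 variant that marks the centromere, had 75.6 and 71.9 CPM in ff against 71.3 and 70.3 in ko (-0.06 ± 0.08, 0.775). The groups overlapped for Cenpf, and for Cenpa the ko values lay just under the ff values. The kinetochore genes Cenpe and Ndc80 had log2 fold changes of 0.25 and 0.24 (0.313 and 0.494), and of 0.12 and 0.070 without ff library 2. Spindle genes, from 0.04 for Ckap2 to 0.27 for Hmmr, and cytokinesis genes, from 0.00 for Kif23 to 0.32 for Anln, had 0 of 9 past the threshold. Of these 9, 3 were higher at an unadjusted edgeR p of at most 0.05, against 8.62% of all genes. Tpx2, Kif11, Nusap1, Tacc3 and Kif20a lay between the fold changes named. Cdc20, the activator of the anaphase-promoting complex, had 0.25 (edgeR adjusted p = 0.210).

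**Figure D3:**
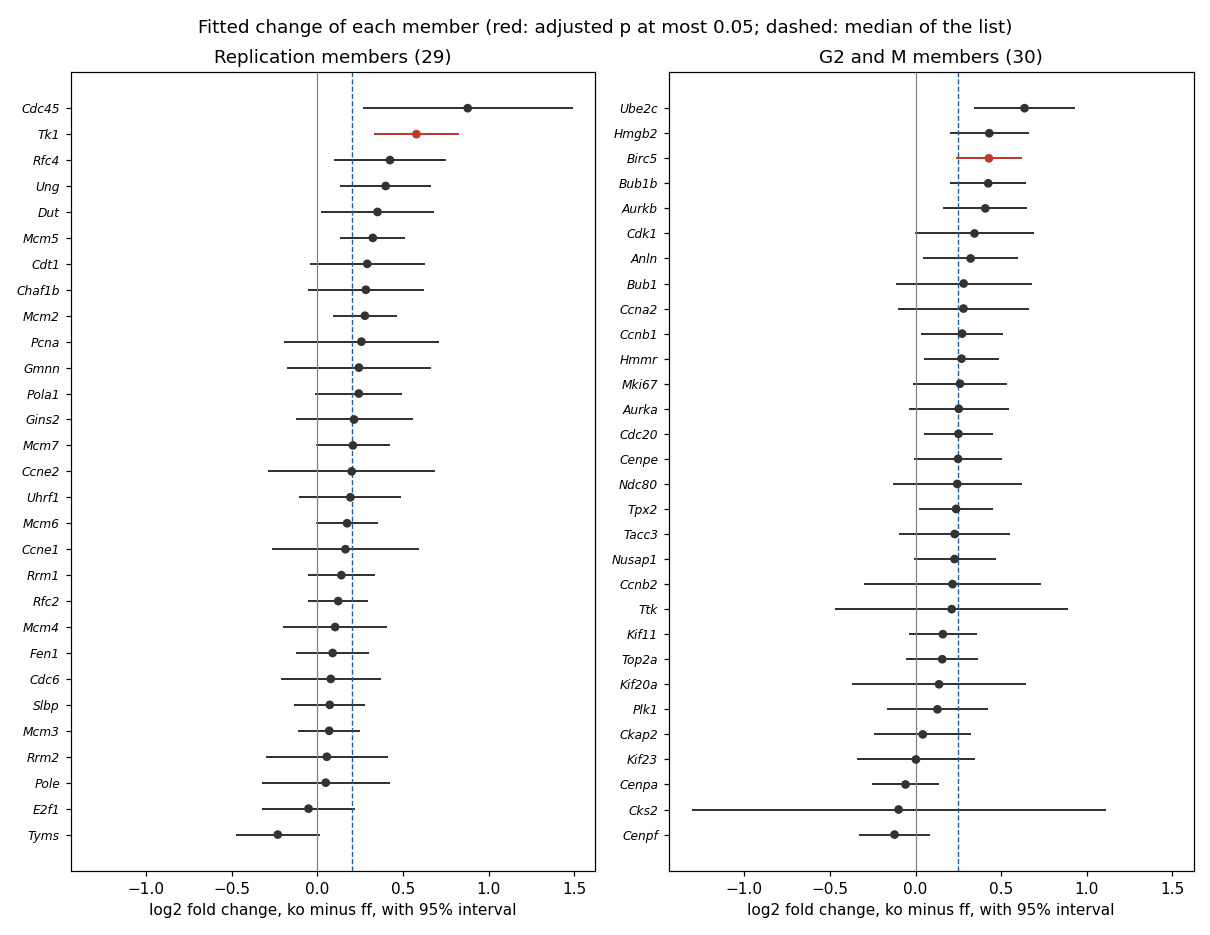
Fitted log2 fold change of each member, ko minus ff, with its 95% interval, red where the adjusted p is at most 0.05 and dashed at the list's median. Tk1 and Birc5 are red, Cdc45 and Ube2c lie furthest to the right, and Tyms and Cenpf lie furthest to the left of their lists.

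The intervals set a limit on the size of the fitted difference between these groups of libraries, whose spread may be technical. The 95% interval lay wholly within 2-fold either way in 57 of the 59 members, and within 1.5-fold in 34. The exceptions at 2-fold were Cdc45 and Cks2. A fitted change of at least 1.5-fold was found in 2 members, Cdc45 and Ube2c, and 39 of 59 had a fitted change under 1.2-fold. Per kilobase of transcript, members ran from 1.63 CPM for Cks2 and 1.94 for Cdc45 to 56.8 for Slbp and 69.5 for Hmgb2. Cdc45 was thus near the bottom in level and at the top in fold change.

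Other genes of the cell cycle, from 10 lists without members, gave 2 rises and 0 falls among 180 tested genes. Over all genes 1.19% were called higher and 0.518% lower. At an unadjusted edgeR p of at most 0.05 there were 30 higher and 6 lower, against 8.62% and 7.56% of all genes. The fitted change was above 0 in 133 of 180, against 51% of all genes, with a median log2 fold change of 0.13. Cdkn1a, which encodes the CDK inhibitor p21, had 54.2 and 50.7 CPM in ff against 98.5 and 102.5 in ko. It rose 1.92-fold, with a log2 fold change of 0.94 ± 0.08 (SE) and an edgeR adjusted p of 0.00117, and it passed under all 11 alternative settings. So a gene that restrains CDKs had a larger fitted change than 59 of 59 members. Pole4, a small subunit of the leading-strand polymerase, had 41.2 and 41.9 CPM in ff against 70.3 and 62.2 in ko, rose 1.60-fold (0.0188), and also passed under all 11.

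By list, the medians were 0.05 for origin licensing and firing (17 tested), 0.12 for polymerases and the fork (23), 0.15 for G1 cyclins, Rb and E2F (21) and 0.32 for CDK inhibitors (6). They were 0.27 for MuvB, Myb and Foxm1 (7), 0.10 for the kinetochore and checkpoint (26), -0.01 for cohesin and condensin (19) and 0.20 for the spindle and cytokinesis (24). For the anaphase-promoting complex and CDK1 regulation the median was 0.08 (22) and for replication stress and repair 0.20 (15). In the lists with no gene past the threshold the most expressed members, with their log2 fold changes, were Orc3 (-0.02), Ccnd1 (0.17), Rbbp4 (-0.23), Mis12 (0.05), Smc1a (-0.03), Ckap5 (-0.13), Anapc5 (0.02) and Blm (0.20), with edgeR adjusted p between 0.290 and 0.948.

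Markers of other cells were measured in the same libraries, and their part in the result was not tested. Over all genes, 51% had a fitted change above 0 and 1.7% were called. At an unadjusted edgeR p of at most 0.05, 8.62% of all genes were higher. Markers of mural cells and fibroblasts summed to 292.4 and 439.6 CPM in ff against 695.7 and 491.7 in ko, with 8 of 8 fitted changes above 0 and 0 called. Those of lymphocytes and natural killer cells summed to 20.8 and 15.8 CPM in ff against 37.1 and 33.6 in ko, with 8 of 8 above 0 and 1 called. Like the member sums, these lists and the monocyte and neutrophil list were lower in both ff libraries. The mural, neural progenitor and endothelial sums were lowest in ff library 2, as were the members'. Neural progenitor markers, which mark another dividing population of the embryonic cortex, summed to 718.8 and 967.5 CPM in ff against 739.2 and 972.3 in ko, so they did not separate the groups. Most of that sum was Slc1a3, a glutamate transporter gene, at 426.2 and 575.1 CPM in ff against 405.2 and 582.3 in ko, and Fabp7, a fatty acid binding protein gene, at 130.8 and 204.5 against 147.6 and 181.7. Eomes and Neurog2 had 0 to 0.426 CPM. Of 10 tested markers 0 were called and 2 were higher at an unadjusted p of at most 0.05, namely Vim (74.5 and 70.4 CPM in ko against 51.4 and 54.5 in ff, edgeR adjusted p = 0.0525) and Sox2 (1.06 and 1.26 against 0.409 and 0.497, 0.275). Neuron markers summed to 447.7 and 477.6 CPM in ff against 321.7 and 373.0 in ko, with 10 of 10 fitted changes below 0 and 1 called (Sox11). Border macrophage markers summed to 21850 and 19372 CPM in ff against 15322 and 17204 in ko, with 7 of 8 below 0 and 1 called (Cd163). Erythroid markers, of cells that also divide at this age, summed to 18.7 to 24.8 CPM in the 4 libraries, with Hbb-y at 0 in 3 libraries. Endothelial markers summed to 49.8 and 76.0 CPM in ff against 63.3 and 110.3 in ko, and monocyte and neutrophil markers to 99.95 and 88.6 CPM in ff against 138.3 and 126.6 in ko, with 1 called higher (Ccr2). Microglia markers summed to between 14129 and 15369 CPM, and 3 of 9 tested passed (edgeR adjusted p), with Cx3cr1, the fractalkine receptor gene, lower in ko (log2 fold change -0.92, 0.00108) and Tmem119 (0.61, 0.0158) and Aif1 (0.47, 0.0329) higher.

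**Figure D4:**
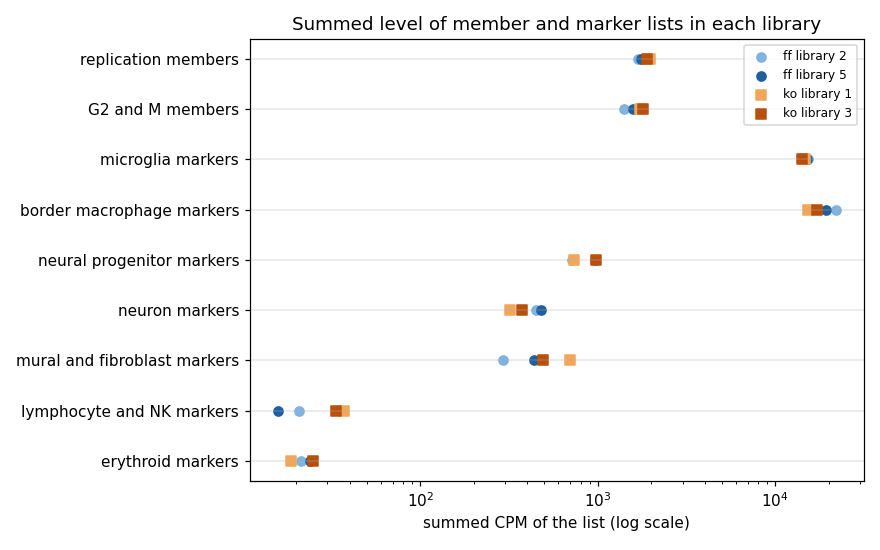
Summed CPM of each list in each library on a log axis, ff libraries as circles and ko libraries as squares. Both member lists lie lower in ff than in ko, as do the mural and lymphocyte lists, while neural progenitor markers are highest in ff library 5 and ko library 3.

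The medians were also computed under other settings. Across the other tools, scalings and filters the replication median lay between 0.19 and 0.20 and the G2 and M median between 0.24 and 0.25. Under the length and GC offset they were 0.14 and 0.19, beside a median of -0.04 over all genes. Of the 59 members 18 overlap exons of another gene in the GRCm38 annotation, mostly on the opposite strand. Among them, on the opposite strand, are Cdc45 (with Ufd1, 2.45% of runs shared), Ube2c (with Tnnc2, 7.36%) and Rfc4 (with Eif4a2, 7.37%). For Gins2 the gene Gse1 shares 70% of the runs.

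**Figure D5:**
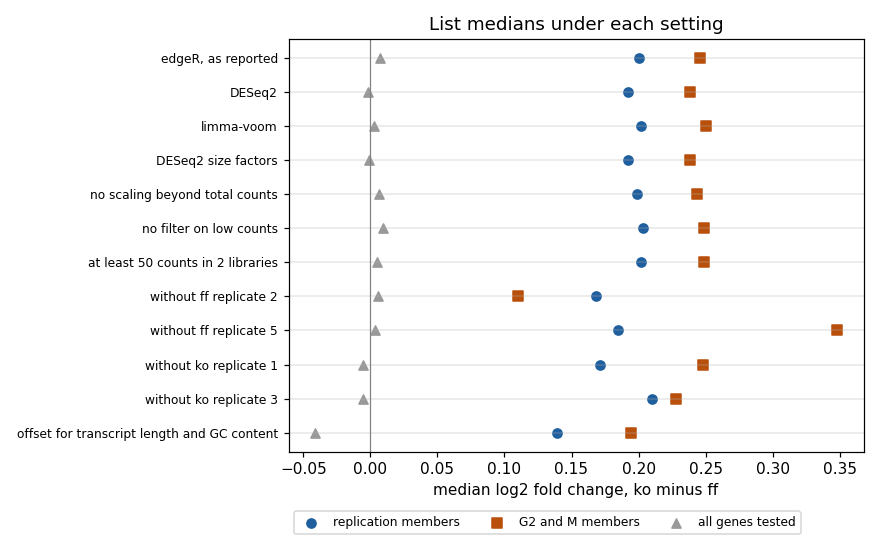
Median log2 fold change, ko minus ff, of the replication members (circles), the G2 and M members (squares) and all genes tested (triangles) under each setting. Both member medians stay above 0 and above all genes in every setting shown, and the G2 and M median falls to 0.11 without ff library 2.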

How the data were processed

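Gene expression was sequenced in 4 libraries, grouped by their titles into 2 ko and 2 ff. Total RNA came from TRIzol extraction and mRNA was enriched with oligo(dT), per the labels' protocols. Reads of 150 bp were aligned with HISAT2 2.0.5 to GRCm39, per the submitters' processing notes and the design text. How strand was handled in counting, and the annotation, is not given in the sources used here. Raw whole-number counts, 1 row a gene, were deposited by the authors. Of 26054 lines, 3 held stray text and were left out.

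Genes were filtered with filterByExpr, scaled by trimmed mean of M-values and fitted with edgeR 4.0.16 (robust quasi-likelihood, R 4.3.3) over all 15840 genes kept, which held 99.9% of the counts. P-values were Benjamini-Hochberg adjusted, with 0.05 as threshold. CPM uses the scaled library sizes. Standard errors are the fold change over the root of F, and 95% intervals use a t quantile. The script was tested on simulated data. Within a group, libraries differed by more than sampling noise (chi-square 7.71 times its degrees of freedom in ff, 14.8 in ko). Alternatives were DESeq2 1.42.0, limma-voom (limma 3.58.1), size factors of DESeq2, no scaling, no filter, at least 50 counts in 2 libraries, each library left out, and a spline offset for length and GC of transcripts.

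Transcript lengths and shared 100-base runs come from the longest transcript of each symbol in GENCODE (GRCm38), another build than that of the counts, which gave a length for 90.8% of tested genes. Named in full were members past the threshold, the 3 of each list highest in level, rise and fall, the MCM2-7 subunits, the cyclins and standard markers. Of each other list, genes past the threshold or else the most expressed one were named. The members, lists and this rule were chosen with earlier results of these data known, and the neighbours of Tk1 and Birc5 after their values were seen.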

Additional observations from a re-analysis of the deposited data

How the results depend on the processing

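No paired analysis was made, since ko and ff share no library number and the labels used here name no pairs. Tk1 and Birc5 passed with DESeq2, its size factors, no scaling, no filter and the stricter filter, and 0 members were called lower under any of the 11 alternatives. Calls over all genes numbered 270, and 566 with DESeq2 (341 higher, 225 lower), 175 with limma-voom and 1386 without a filter (779 higher, 607 lower). Leaving out a library gave 198 to 1213, where the lowest count was without ff library 2 and the highest without ko library 3. More genes were lower than higher when ff library 5 (235 of 450) or ko library 1 (585 of 996) was dropped. Replication members called numbered 1, and 0 with limma-voom, 3 without a filter, 0 with the length and GC offset and 0 to 1 with a library left out. G2 and M members called numbered 1, and 3 with DESeq2, 0 with limma-voom, 2 without scaling, 5 without a filter, 0 with the offset and 0 to 4 with a library left out (0 without ff library 2). The replication median was 0.14 with the offset, and the G2 and M median ran from 0.11 without ff library 2 to 0.35 without ff library 5. The causes were not tested.

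Of 812 recomputed values of single genes, 750 kept their direction and side of the threshold, 7 lost the call, 20 gained it and 35 changed sign, none of these called. Kif23 was at -0.0065 with DESeq2 and -0.0063 with its size factors. With the offset, log2 fold changes were below 0 for Rrm2 (-0.043), Fen1 (-0.018), Kif23 (-0.035), Ckap2 (-0.035), Mis12 (-0.0085), Anapc5 (-0.036), Afmid (-0.033) and Tha1 (-0.034). With a library left out the values spanned 0 for Mcm4 (-0.035 to 0.22), Rrm2 (-0.068 to 0.16), Cdc6 (-0.049 to 0.18), Ccne1 (-0.083 to 0.36), Pole (-0.0073 to 0.081), Slbp (-0.044 to 0.17), Ccnb2 (-0.0045 to 0.39), Kif20a (-0.010 to 0.28), Kif23 (-0.045 to 0.025), Ttk (-0.16 to 0.70), Cks2 (-0.64 to 0.30), Ckap2 (-0.060 to 0.13), Orc3 (-0.047 to 0.00069), Mis12 (-0.066 to 0.14), Smc1a (-0.099 to 0.016), Anapc5 (-0.032 to 0.058), Afmid (-0.16 to 0.33) and Tha1 (-0.019 to 0.17). A library left out leaves a lone sample in its group, assumed to vary like the other group. Cks2, Ttk and Cdc45 were the members with the largest SE (0.52, 0.29 and 0.26). Low counts limit Cks2 and Cdc45, while Ttk had 84 counts in ff library 2 against 170 in ff library 5.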
